A study of Homo sapiens with 24 samples.

Results

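Interferon beta signalling was described here through 9 genes: the ligand IFNB1, the receptor chains IFNAR1 and IFNAR2, the receptor-bound kinases JAK1 and TYK2, the signal transducer STAT2, and the transcription factors IRF1, IRF7 and IRF9. They were chosen by name as the parts of 1 signalling chain, and every probe set that the array annotation gives to a single gene symbol was taken. That rule found 8 of the 9 genes, with 18 probe sets, among 19775 genes measured. STAT2 had no probe set with a single symbol and is not analysed here.

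The cells were KARPAS-422, an established line of human diffuse large B-cell lymphoma whose labels give the EZH2 genotype Y641N in every sample. EZH2 is the enzyme of Polycomb repressive complex 2 that silences genes by methylating histone H3. An unnamed EZH2 inhibitor at 5 uM was compared with its vehicle, DMSO, after 1, 2, 3 and 6 days, which gives 8 groups of 3 biological replicates. Total RNA of each of the 24 samples was read on 1 Affymetrix U133 Plus 2 array, and only 1 cell line was studied.

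Interferon beta is a secreted cytokine that cells switch on when they sense foreign or misplaced nucleic acid. It binds a receptor made of the chains IFNAR1 and IFNAR2, whose kinases TYK2 and JAK1 phosphorylate STAT proteins such as STAT2. With IRF9 these form the factor ISGF3, which turns on the interferon-stimulated genes. IRF7 is itself such a gene and drives further interferon transcription, and IRF1 switches on antigen-processing and death-receptor genes.

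All levels are the authors' RMA values on the log2 scale, so that a difference of 1 is a doubling, and a probe set's level cannot be compared with that of another probe set. The array median is used below only as a rough mark of dim and bright probe sets. A gene stands for its brightest probe set unless another is named. Rose, higher and called mean a limma adjusted p under 0.05, with p adjusted over all 19775 genes. Array medians lay between 4.958 and 5.032. All 6 B-cell markers measured lay above the array median, with a mean per array of 10.04 to 10.94 in inhibitor arrays and 10.03 to 10.58 in DMSO arrays. Markers of T and NK cells averaged 4.958 to 5.17 in inhibitor arrays and 5.078 to 5.233 in DMSO arrays, with 2 of 8 above the array median, CD3G being the brightest at 10.95. Those of myeloid and plasmacytoid dendritic cells averaged 4.013 to 4.239 in inhibitor arrays and 4.136 to 4.268 in DMSO arrays. EZH2 itself was lower at day 6, by a log2 difference of -0.64 ± 0.12 (SE, adjusted p = 8.90e-05).

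The promoters of IFNB1, IRF1 and IRF9 are shown because promoters of this chain are, as background, themselves bound by IRF, STAT and NF-kB factors. Each line gives the 130 bases before the annotated start in RefSeq's GRCh38.p14, 5′ to 3′ on the gene's own strand: chr9:21077943-21078072 (minus strand) for IFNB1, chr5:132490774-132490903 (minus) for IRF1 and chr14:24161135-24161264 (plus) for IRF9. Capitals mark matches to AANNGAAA, the core bound by IRF proteins, to TTCNNNGAA, the GAS element bound by STAT dimers, and to the NF-kB consensus, each searched on both strands.
IFNB1: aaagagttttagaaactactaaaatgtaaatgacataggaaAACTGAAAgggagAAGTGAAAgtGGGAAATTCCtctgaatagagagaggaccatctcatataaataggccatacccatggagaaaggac
IRF1: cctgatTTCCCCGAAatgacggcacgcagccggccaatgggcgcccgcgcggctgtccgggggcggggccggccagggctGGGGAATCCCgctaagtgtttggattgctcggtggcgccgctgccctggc
IRF9: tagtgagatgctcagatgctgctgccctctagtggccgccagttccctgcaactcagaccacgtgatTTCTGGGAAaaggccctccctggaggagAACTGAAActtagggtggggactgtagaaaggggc
In IFNB1 both IRF cores, AACTGAAA and AAGTGAAA, stand just before an NF-kB match, GGGAAATTCC. IRF1 has a GAS element (TTCCCCGAA) and an NF-kB match (GGGGAATCCC) but no IRF core in this window, and IRF9 has a GAS element (TTCTGGGAA) and an IRF core (AACTGAAA). Windows of 300 bases were held for 7 of the 9 genes, 10 windows in all since some genes have several starts. AANNGAAA was found in 4 of these 10 windows and in 22.8% of all 35116 RefSeq windows of the same length. TTCNNNGAA was found in 3 of 10 windows against 7.66% of all, and the NF-kB consensus in 2 of 10 against 11.3%. The windows of the 3 genes shown hold every GAS and NF-kB match, so they are not typical of the 10. The only matches in other windows were IRF cores of JAK1. The longer interferon-stimulated response element (GAAA, any 2 bases and GAAA again), which contains the shorter core, was in 0 of 10 windows and 3.57% of all. A match to these letters is a description of the sequence and was not tested as a binding site.

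More genes of the chain were above DMSO at the later days. At day 1, 1 of the 8 measured genes was called higher (JAK1), where 0.475% of all genes were. At day 2 it was again 1 gene, JAK1, against 3.57% of all genes. At day 3 it was 4 genes (JAK1, IRF1, IRF7 and IRF9), against 8.64% of all genes, and at day 6 it was 7 genes, all but IFNAR2, against 18.5%. None was called lower at any day, where 0.0101%, 0.824%, 7.65% and 26.9% of all genes were at days 1, 2, 3 and 6. In RNA from a whole culture, a change in the share of cells that express a gene and a change in the RNA per cell cannot be told apart. The median difference of the 8 genes was 0.20, 0.44, 0.89 and 1.51 at days 1, 2, 3 and 6, beside -0.01, -0.04, -0.04 and -0.11 over all genes. Counted without a model, all 3 inhibitor arrays lay above all 3 DMSO arrays for 1, 5, 6 and 7 of the 8 genes at the 4 days, which 5.35%, 9.34%, 13.3% and 19.8% of all genes did. Leaving out the 8 arrays numbered 2 reduced the day 3 count to 2 genes, with IRF7 at 1.26 (adjusted p = 0.144) and IRF9 at 0.95 (adjusted p = 0.202). Calls over all genes also varied: over 18 alternative settings the lowest counts were 246 at day 2 (706 as reported) and 858 at day 3 (1709). Whether drops without the arrays numbered 2, here and in the lists below, were particular to these genes was not tested.

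**Figure D1:**
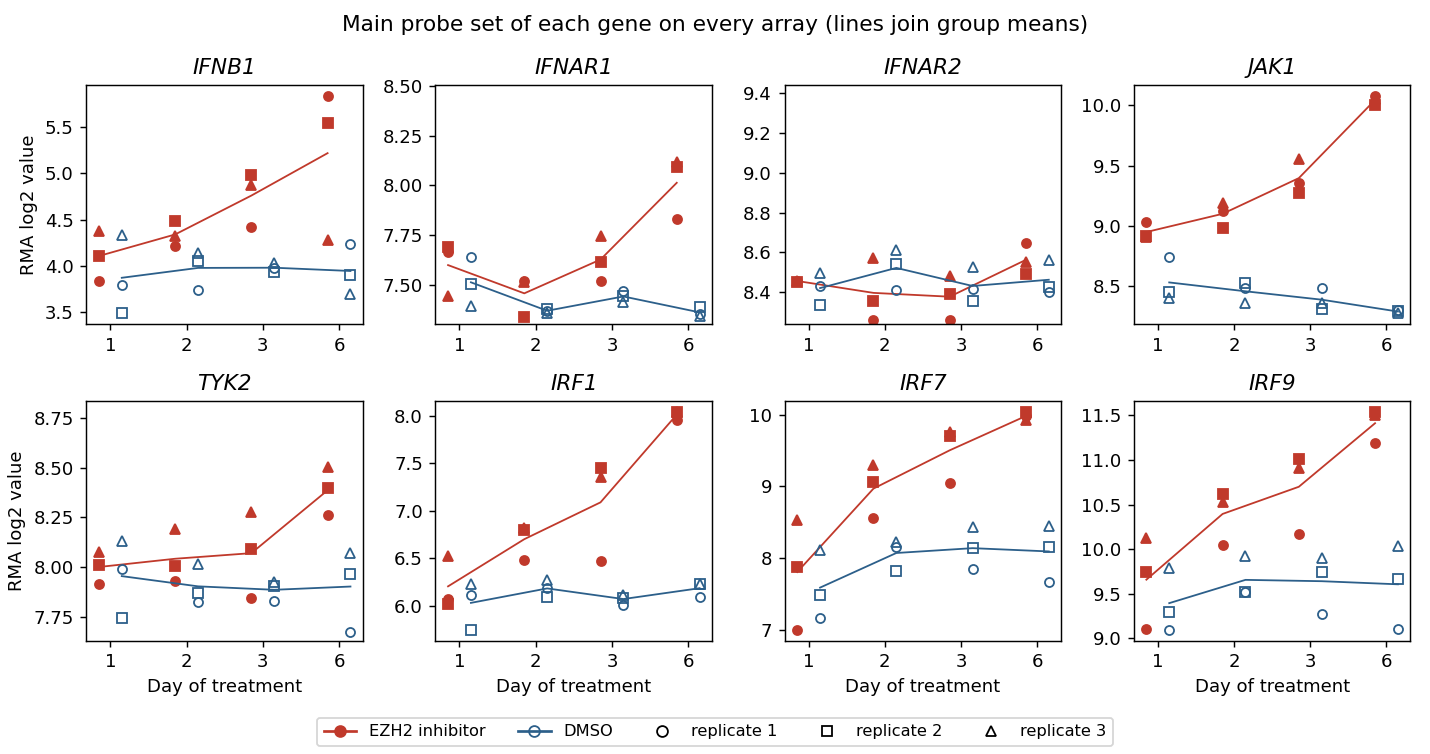
RMA log2 values of the main probe set of the 8 measured genes (vertical axes, own range for each gene) on all 24 arrays by day of treatment. Filled red symbols are EZH2 inhibitor arrays, open blue symbols DMSO arrays, shapes give the replicate number and lines join group means; at day 6 the 2 sets of symbols are apart in every gene except IFNAR2.

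The ligand IFNB1 was called at day 6 only, and its level was low. At day 6 its values were 5.84, 5.54 and 4.28 on the inhibitor arrays, against 4.24, 3.90 and 3.70 on the DMSO arrays. The groups did not overlap, but the lowest inhibitor array (replicate 3) was only just above the highest DMSO array. The difference was 1.27 ± 0.28 (SE, adjusted p = 0.000649), and 1.75 without that inhibitor array. All 3 DMSO values lay under the array median, and RMA gives no detection call, so no fold is given.

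Before that day IFNB1 was not called. At day 3 it had 4.42, 4.98 and 4.88 on inhibitor arrays, against 3.98, 3.94 and 4.03 on DMSO arrays, again with no overlap, but the difference of 0.78 ± 0.28 did not pass (adjusted p = 0.0579), though it did in 6 of 18 alternative settings. At day 2 the values were 4.21, 4.48 and 4.32 with inhibitor, against 3.74, 4.06 and 4.13 with DMSO, with no overlap but a difference of 0.36 (adjusted p = 0.544). At day 1 they were 3.84, 4.10 and 4.38 with inhibitor and 3.79, 3.49 and 4.33 with DMSO, and overlapped. IFNB1 lay above the array median on 2 of the 24 arrays, both of them inhibitor arrays at day 6, whereas the other 7 genes lay above it on all 24. Its difference at day 6 exceeded that at day 1 by 1.04 ± 0.39 and did not pass (adjusted p = 0.0533). This change passed in 6 of 24 alternative settings, one being without the low inhibitor array of day 6 (1.51, adjusted p = 0.000402). With a replicate block within each day its adjusted p was 0.00727.

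None of the other interferon genes was called higher. Of 16 measured genes of the alpha, omega, kappa, epsilon and lambda classes, limma called 0 higher at any day. Over all genes 0.475%, 3.57%, 8.64% and 18.5% were higher at days 1, 2, 3 and 6, and 26.9% were lower at day 6. Under an unadjusted p of 0.05 were 0, 2, 1 and 1 of the 16, beside 1197, 3316, 5554 and 10346 of all 19775 genes. The 1 called gene, IFNA17, was lower at day 6, at 3.90 on average with inhibitor and 4.41 with DMSO (difference -0.50 ± 0.15, adjusted p = 0.00782). Group means of all 16 genes, like IFNB1 on most arrays, lay under the array median at every day. The highest was 4.78 (IFNL1 with DMSO at day 2). Whether probe sets this dim could have shown a change was not tested.

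The receptor chain IFNAR1 rose at day 6 and was not called before. Its values at day 6 were 7.83, 8.09 and 8.12 with inhibitor, against 7.36, 7.39 and 7.35 with DMSO. The inhibitor arrays all lay clearly above the tight DMSO arrays, with a difference of 0.65 ± 0.09 (adjusted p = 2.31e-06), or 1.57-fold. At day 3 the values were 7.52, 7.62 and 7.75 with inhibitor, against 7.47, 7.45 and 7.42 with DMSO, a difference of 0.19 ± 0.09 that did not pass (adjusted p = 0.169). At days 1 and 2 the difference was 0.09 on both days and the arrays overlapped.

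IFNAR1 had 4 probe sets. At day 6, 225661_at (0.62 ± 0.09) and 204191_at (0.53) were called higher like the main probe set 225669_at. The fourth, 236478_at, read 5.89, 5.75 and 5.94 with inhibitor and 5.98, 6.00 and 5.98 with DMSO, a difference of -0.13 ± 0.08 (adjusted p = 0.241 over all probe sets). Averaged over all 4, the difference at day 6 was 0.42 (adjusted p = 3.40e-05).

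IFNAR2 gave different readings by probe set. On the brightest one, 204785_x_at, day 6 values were 8.65, 8.49 and 8.55 with inhibitor, against 8.40, 8.43 and 8.56 with DMSO. These overlap, and the difference of 0.10 ± 0.09 was not called (adjusted p = 0.350). In Affymetrix naming an x marks a probe set with probes that can also match other transcripts. Whether this or any other IFNAR2 probe set did so here was not tested. On 204786_s_at the values were 8.58, 8.67 and 8.76 with inhibitor, against 7.41, 7.53 and 7.79 with DMSO, and on 227125_at they were 8.58, 8.63 and 8.86 with inhibitor, against 7.65, 7.69 and 8.0 with DMSO. Both of these probe sets were higher without overlap, by 1.09 ± 0.10 (adjusted p = 1.03e-08) and by 0.91 ± 0.12 (adjusted p = 3.57e-06), and the mean of the 3 was higher by 0.70 (adjusted p = 1.05e-06).

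The 2 IFNAR2 probe sets that rose did so late. Their differences were 0.00 and -0.01 at day 1, 0.02 and -0.09 at day 2, and 0.31 (adjusted p = 0.0508) and 0.24 at day 3, in the order 204786_s_at and 227125_at. The growth between day 3 and day 6 passed for both, at 0.78 ± 0.14 (adjusted p = 0.000926) and 0.66 ± 0.17 (adjusted p = 0.0195).

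JAK1, the kinase bound to IFNAR2, was the only one of the 8 genes called at all 4 days. At day 1 it had 9.03, 8.91 and 8.91 with inhibitor, against 8.74, 8.45 and 8.41 with DMSO. At day 2 it had 9.13, 8.98 and 9.19 with inhibitor, against 8.49, 8.53 and 8.36 with DMSO, so that the groups were already apart. At day 3 it had 9.36, 9.28 and 9.56 with inhibitor, against 8.49, 8.31 and 8.36 with DMSO, and at day 6 10.08, 10.001 and 10.05 with inhibitor, against 8.30, 8.30 and 8.28 with DMSO. The inhibitor arrays lay above all DMSO arrays at every day.

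The JAK1 difference was 0.42 ± 0.09 at day 1 (adjusted p = 0.0309), 0.64 at day 2 (adjusted p = 8.02e-05), 1.01 at day 3 (adjusted p = 6.95e-08) and 1.75 at day 6 (adjusted p = 1.26e-12), a 3.37-fold higher value. The day 1 call was the least secure of these: it held in 8 of 19 alternative settings, with adjusted p between 0.0634 and 0.182 after the loss of any 1 of 5 of the 6 arrays of that day. Of 5 JAK1 probe sets, 4 were higher at day 6, by 0.69 to 1.75. The dim 240613_at was lower, with 3.25, 3.49 and 3.37 with inhibitor and 3.90, 3.5 and 3.77 with DMSO (-0.35 ± 0.10, adjusted p = 0.00578), and it lost the call without the arrays numbered 1 (-0.21, adjusted p = 0.219) or without those numbered 3 (-0.33, adjusted p = 0.0802). Averaged over the 5, JAK1 was higher by 0.98 at day 6 (adjusted p = 2.47e-09).

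TYK2, the kinase bound to IFNAR1, moved least among the genes called. Its day 6 values were 8.26, 8.40 and 8.5 with inhibitor, against 7.67, 7.96 and 8.07 with DMSO. The groups did not overlap, and the difference was 0.48 ± 0.12 (adjusted p = 0.00180), or 1.40-fold. At days 1, 2 and 3 it was 0.05, 0.14 and 0.18, with overlapping arrays and no call.

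**Figure D2:**
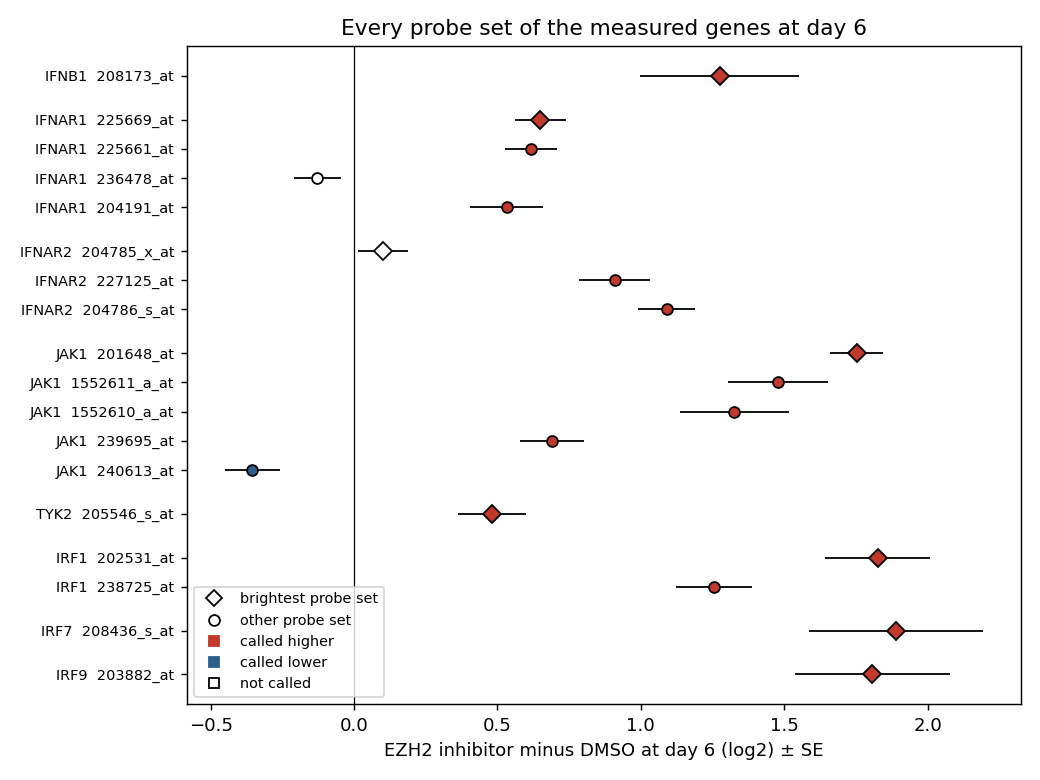
Difference between EZH2 inhibitor and DMSO at day 6 (horizontal axis, log2, with SE) for each of the 18 probe sets of the 8 measured genes. Diamonds are the brightest probe set of a gene, red is called higher, blue called lower and white not called; 15 of the 18 were higher, JAK1 240613_at was lower, and IFNAR2 204785_x_at and IFNAR1 236478_at were not called.

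Over the 18 probe sets together, none was called at day 1, 2 were higher at day 2, 8 at day 3 and 15 at day 6. Of all 54613 probe sets, 0.189%, 1.94%, 5.87% and 16.3% were higher at days 1, 2, 3 and 6, and 20.4% were lower at day 6. The p here were adjusted over all probe sets. At day 1 the count of 0 includes JAK1 201648_at, whose adjusted p over all probe sets was 0.0678.

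All 3 transcription factors were called higher at days 3 and 6. IRF1 had 6.46, 7.45 and 7.35 with inhibitor at day 3, against 6.01, 6.08 and 6.12 with DMSO. At day 6 it had 7.95, 8.04 and 8.04 with inhibitor, against 6.10, 6.23 and 6.22 with DMSO. The wide inhibitor group of day 3, with replicate 1 well below the other two, had closed up at day 6. The differences were 1.02 ± 0.18 at day 3 (adjusted p = 0.000358) and 1.83 at day 6 (adjusted p = 2.89e-08), which is 3.54-fold. The second IRF1 probe set, 238725_at, was higher by 0.80 at day 3 and 1.25 at day 6.

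IRF7 was higher by 1.36 ± 0.30 at day 3 (adjusted p = 0.00268) and 1.89 at day 6 (adjusted p = 2.23e-05), or 3.70-fold. Its day 6 values were 9.97, 10.04 and 9.93 with inhibitor, against 7.67, 8.16 and 8.45 with DMSO. At day 3 they were 9.04, 9.70 and 9.76 with inhibitor, against 7.84, 8.14 and 8.43 with DMSO. At both days the groups were apart, and at day 6 the inhibitor arrays were close to each other while the DMSO arrays were spread.

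IRF9, the DNA-binding partner of STAT2, had 11.19, 11.54 and 11.51 with inhibitor at day 6, against 9.11, 9.67 and 10.04 with DMSO. At day 3 it had 10.17, 11.01 and 10.91 with inhibitor, against 9.28, 9.75 and 9.90 with DMSO. No inhibitor array overlapped with DMSO on either day. The differences were 1.06 ± 0.27 at day 3 (adjusted p = 0.00800) and 1.81 at day 6 (adjusted p = 9.08e-06), or 3.5-fold. The day 3 call was lost without inhibitor replicate 2 (0.90, adjusted p = 0.0551) and without DMSO replicate 1 (0.88, adjusted p = 0.0551).

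At day 2 the 3 factors were already apart from DMSO on every array without passing the test, which left replicate numbers out. IRF1 had 6.48, 6.80 and 6.82 with inhibitor and 6.19, 6.09 and 6.27 with DMSO (0.52, adjusted p = 0.124). IRF7 had 8.56, 9.06 and 9.29 with inhibitor and 8.16, 7.83 and 8.22 with DMSO (0.90, adjusted p = 0.105). IRF9 had 10.04, 10.62 and 10.52 with inhibitor and 9.52, 9.52 and 9.92 with DMSO (0.74, adjusted p = 0.141). With the replicate number as a block in the limma fit, IRF7 and IRF9 passed at day 2 (adjusted p = 0.00583 and 0.00101) and IRF1 did not. With a replicate block within each day all 3 passed, IRF1 with an adjusted p of 0.0358. At day 1 all 3 overlapped, IRF7 for example with 7.0, 7.87 and 8.54 with inhibitor and 7.16, 7.48 and 8.12 with DMSO.

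**Figure D3:**
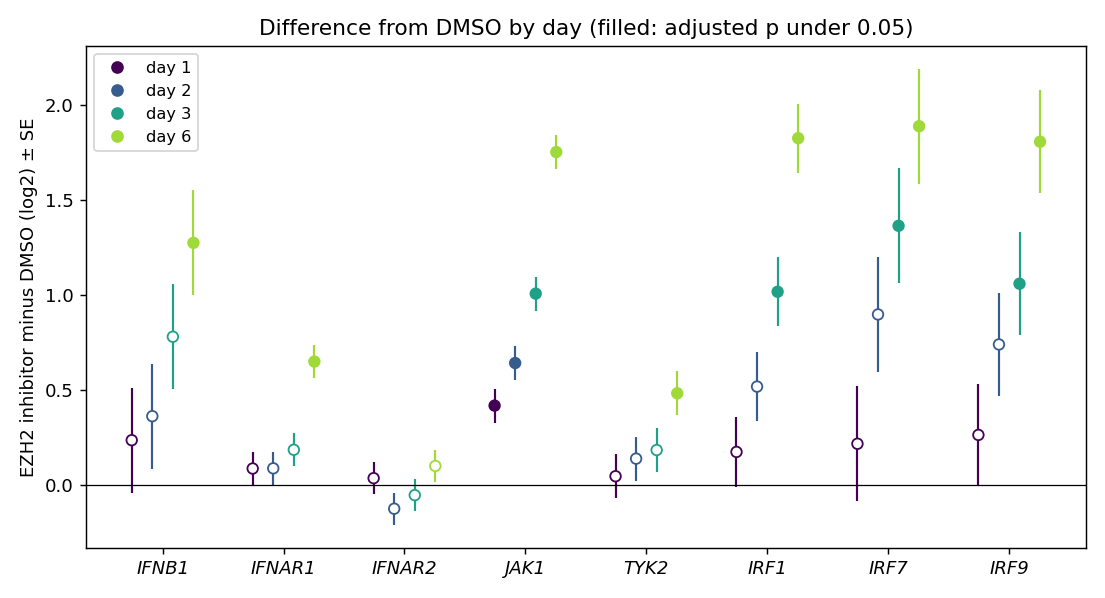
Difference between EZH2 inhibitor and DMSO (vertical axis, log2, with SE) for the 8 measured genes at days 1, 2, 3 and 6, n = 3 arrays a group. Filled points have a limma adjusted p under 0.05; JAK1 is filled at all 4 days, IRF1, IRF7 and IRF9 from day 3, IFNB1, IFNAR1 and TYK2 at day 6, and IFNAR2 at none.

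Whether a difference from DMSO changed with time was tested directly. Between day 1 and day 6 it grew for 5 of the 8 genes, where 12.3% of all genes did: IRF7 by 1.67 ± 0.43 (adjusted p = 0.00495), IRF1 by 1.65 ± 0.26 (3.69e-05), IRF9 by 1.54 ± 0.38 (0.00377), JAK1 by 1.34 ± 0.13 (6.94e-08) and IFNAR1 by 0.56 ± 0.12 (0.00135). Without the arrays numbered 2 the count was 3, as IRF7 (1.77, adjusted p = 0.0957) and IRF9 (1.61, adjusted p = 0.0769) no longer passed. The change for TYK2 was 0.44 ± 0.16 and did not pass (adjusted p = 0.0546), though it did in 8 of 25 alternative settings. Among these were a replicate block (adjusted p = 0.00467) and a replicate block within each day (adjusted p = 0.00834). With probe sets averaged, JAK1 grew by 0.73 (adjusted p = 4.28e-05).

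Single steps were resolved only at the end of the course. Between day 3 and day 6 the difference grew for JAK1 (0.75 ± 0.13, adjusted p = 0.000342), IFNAR1 (0.46 ± 0.12, adjusted p = 0.0146) and IRF1 (0.81 ± 0.26, adjusted p = 0.0422), 3 of 8 genes against 5.98% of all genes. The IRF1 step lost its call when either day's DMSO replicates or the day 6 inhibitor replicates were left out singly (adjusted p of 0.0551 to 0.0868), and was 0.50 (adjusted p = 0.109) without inhibitor replicate 1 of day 3. With its 5 probe sets averaged, the JAK1 step was 0.34 and not called (adjusted p = 0.0561). The IFNAR1 step was lost when all arrays of any 1 replicate number were left out, at 0.48, 0.43 and 0.48 without numbers 1, 2 and 3 (adjusted p = 0.0589, 0.234 and 0.0594). The IRF9 step was 0.75 ± 0.38 and was not called (adjusted p = 0.232). It passed in 2 of 25 alternative settings, a replicate block (adjusted p = 0.00786) and a replicate block within each day (adjusted p = 0.0135). Limma called none of the 8 genes, and 0% of all genes, for the steps between day 1 and day 2 and between day 2 and day 3. Of the 8 genes, 0 and 1 had an unadjusted p under 0.05 in these steps.

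Each treatment was also followed over time on its own. Within the inhibitor arrays, day 6 was higher than day 1 for 7 of 8 genes, all but IFNAR2, against 16.9% of all genes, with IRF7 higher by 2.18, IRF1 by 1.81 and IRF9 by 1.75. Within the DMSO arrays limma called 0 of 8 for the same days, against 0.238% of all genes, with 1 gene (JAK1, -0.24) under an unadjusted p of 0.05. Over the mean of the 4 days, 7 of 8 genes were higher with inhibitor, against 17.1% of all genes. Without the arrays numbered 2, IFNB1 (0.53, adjusted p = 0.0573) and TYK2 (0.19, adjusted p = 0.1001) lost that call.

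The replicates were not alike for some of these genes. In IRF9, arrays numbered 1 were the lowest of their group in 7 of 8 groups, and arrays numbered 3 the highest in 5. In IRF7 the counts were 6 and 7, and in TYK2 7 and 8, so that arrays of both treatments deviated alike by number. After subtraction of the group means, IRF7 and IRF9 correlated over the 24 arrays at r = 0.92, IRF9 and TYK2 at 0.77 and IRF9 and JAK1 at -0.47. These are descriptions over arrays that share replicate numbers. JAK1 did not have this order, with number 1 the highest of its group in 5 of 8 groups and the lowest in 0.

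Target genes of ISGF3 were called higher from day 2. Of 30 genes, all measured, limma called 0 at day 1 (3 at an unadjusted p under 0.05), 20 at day 2 and 29 at days 3 and 6, beside the 0.475%, 3.57%, 8.64% and 18.5% of all genes given above for these days, with median differences of 0.30, 1.2, 1.84 and 2.36. At day 2 the highest were OASL, an antiviral protein related to the oligoadenylate synthetases, at 2.14, and IFIT2, which binds foreign RNA, at 2.05. At day 6 they were IFI27 at 6.61 ± 0.68, RSAD2 (viperin) at 4.96, IFIT2 at 4.34 and OASL at 3.99. The exception was HERC5, the ligase that attaches ISG15 to proteins, whose probe set lay at 3.12 with inhibitor and 3.15 with DMSO, far under the array median. The day 2 count was 1 of 30 without the arrays numbered 2, and the day 3 count 19. These were the lowest of 19 alternative settings, over which the day 2 count reached up to 29 and the day 3 count up to 29. Over all genes the lowest counts were 246 at day 2 (706 as reported) and 858 at day 3 (1709). Whether the drop was particular to ISGF3 targets was not tested. The list was written with the interferon response of these samples known and is not independent evidence of its direction.

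Of 14 measured target genes of IRF1, 0, 2, 8 and 9 were higher at days 1, 2, 3 and 6, where 0.475%, 3.57%, 8.64% and 18.5% of all genes were, and none was lower. CASP1, the inflammatory caspase, was higher by 1.05 at day 2, 2.17 at day 3 and 3.14 at day 6. GBP3, a guanylate-binding protein, was higher by 0.69, 1.75 and 3.28 on the same days. TNFSF10 (TRAIL), a ligand of death receptors, reached 3.71 ± 0.27 at day 6, and GBP1 2.17. With DMSO at day 6, CASP1, GBP3, TNFSF10 and GBP1 lay under the array median, at 4.51, 2.97, 3.21 and 2.79. GBP1 averaged 4.96 with inhibitor. Of the brighter antigen-processing genes on the list, TAP1 (1.25), PSMB9 (0.73) and B2M (0.39) were higher at day 6, and PSMB8 (0.26) was not called. The day 2 count was 0 and the day 3 count 3 without the arrays numbered 2.

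Among 20 measured sensors, adaptors and kinases that switch on IFNB1, the 4 largest called differences at day 6 were those of the RNA sensors IFIH1, TLR7, RIGI and DHX58. IFIH1 (MDA5), which detects long double-stranded RNA, averaged 6.40 with inhibitor and 3.86 with DMSO at day 2, 8.54 with inhibitor and 4.07 with DMSO at day 3, and 9.89 with inhibitor and 3.73 with DMSO at day 6. Its differences were 2.55, 4.47 and 6.17 ± 0.29 (adjusted p = 4.48e-13 at day 6). TLR7, an endosomal RNA sensor, was higher by 3.35 at day 6, RIGI by 1.84 and DHX58 (LGP2) by 1.44. The remaining higher genes at day 6 were MYD88 (1.42), AZI2 (1.05), TANK (0.61) and TRAF3 (0.47). MYD88 was called already at day 2 (0.58), when DHX58 was not. TLR3, an endosomal sensor of double-stranded RNA, was not called, with means of 4.57 with inhibitor and 5.75 with DMSO at day 6 and a difference of -1.18 ± 0.56 (adjusted p = 0.0921).

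On the same list 5 genes were lower at day 6. CGAS, the cytosolic DNA sensor, was lower by a difference of -1.29 ± 0.15 (adjusted p = 3.89e-07) and its adaptor STING1 by -0.35 (adjusted p = 0.00715). IKBKE, a kinase of IRF3 and IRF7, was lower by -0.79. The counts were 0, 4, 7 and 8 higher and 0, 1, 2 and 5 lower at days 1, 2, 3 and 6, the other 2 lower genes at day 6 being TBKBP1 (-0.36) and DDX3X (-0.49). The DNA sensor TLR9 was not called (0.05, adjusted p = 0.798). Over all genes 18.5% were higher and 26.9% lower at day 6, so that 5 of 20 lower is a share near that of all genes. The day 2 count of higher genes was 1 without the arrays numbered 2, and 2 without inhibitor replicate 2 of that day.

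Feedback inhibitors of the receptor were mixed, with 6 of 16 higher and 2 lower at day 6, beside 18.5% higher and 26.9% lower over all genes. USP18, which displaces JAK1 from IFNAR2, was higher by 1.5 at day 2, 2.44 at day 3 and 3.04 ± 0.26 at day 6. SOCS1, which blocks JAK kinases, was higher by 0.92 at day 3 and 1.95 at day 6, and the phosphatase PTPN1 by 1.03 at day 6. The phosphatase PTPN6 (SHP-1) was lower by -1.0 ± 0.16 (adjusted p = 2.76e-05), and the other lower gene was PIAS2 (-0.96). At day 3, 4 were higher and 2 lower, and at day 2, 1 each. Without the arrays numbered 2 the counts of higher genes were 0 at day 2 and 1 at day 3.

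Of the other kinases and transducers of the family, 3 of 7 measured were higher at day 6 and none lower, beside the same shares. These were STAT3 (1.43 ± 0.23, adjusted p = 2.18e-05), JAK2 (1.17, adjusted p = 7.17e-05) and STAT6 (0.68, adjusted p = 2.58e-07). JAK3, STAT4, STAT5A and STAT5B were not called, with differences of -0.25 to 0.19. Of the 5 other IRF genes measured, IRF2 (0.71, adjusted p = 9.38e-06) and IRF8 (0.69, adjusted p = 4.70e-08), a factor of B-cell and myeloid development, were higher at day 6. IRF3, IRF4 and IRF5 were not called, at -0.22, -0.26 and -0.12.

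**Figure D4:**
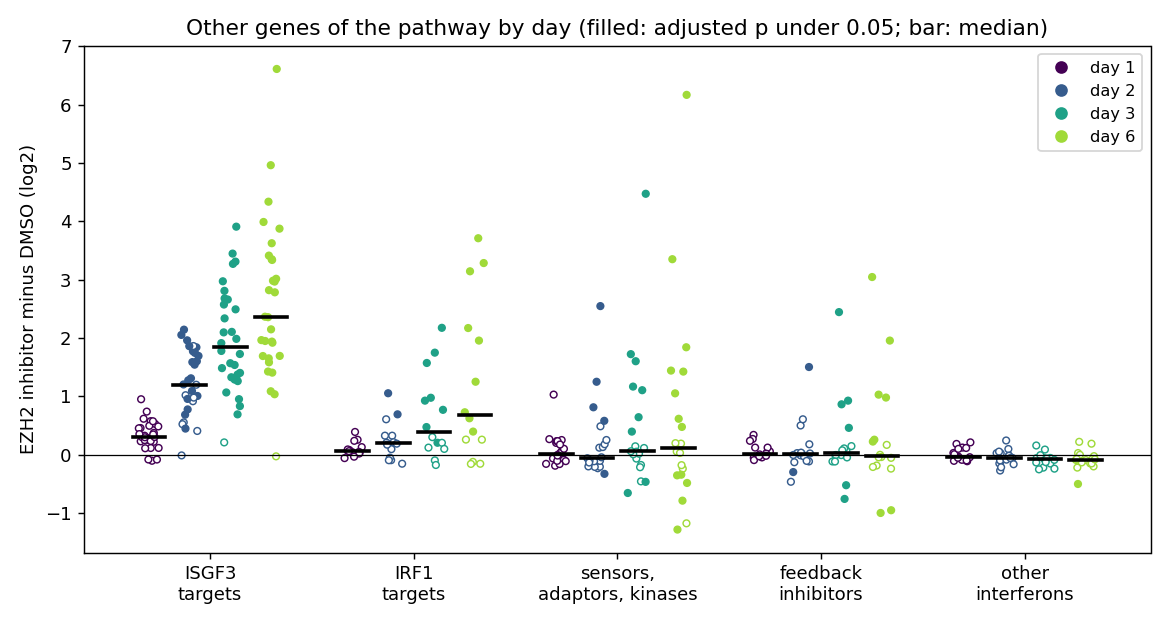
Difference between EZH2 inhibitor and DMSO (vertical axis, log2) for single genes of 5 groups of the pathway at days 1, 2, 3 and 6. Filled points have a limma adjusted p under 0.05 and bars are group medians; the ISGF3 targets reach a median of 2.36 at day 6 while the other interferon genes stay near 0.

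The genes whose 8 group means tracked each of the 7 called genes most closely were looked up among 1847 or 1848 genes whose means spanned at least 1. For IRF7 these were IFI44L, PLSCR1 and IFITM1, all 3 interferon-stimulated genes (Pearson r = 0.998, 0.998 and 0.997 over 8 means). For IRF9 they were CTDSP2, TP53I3 and IFITM2 (r = 0.998, 0.998 and 0.996), and for IRF1 ZNFX1, MAST4 and ACTG2 (r = 0.998, 0.996 and 0.996). For IFNB1 they were CASP1, WDFY1 and TP53INP1, each at r = 0.997.

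The kinases and the receptor had other neighbours. For JAK1 they were NAB1, SLC66A3 and PIK3R3 (r = 0.996, 0.996 and 0.996), for TYK2 PSAP, TNFSF15 and CCDC191 (0.994, 0.994 and 0.994), and for IFNAR1 DUSP5, GJA10 and CFAP70 (0.988, 0.986 and 0.985). These correlations rest on 8 group means that share the same arrays and are given as a description. Among the 8 genes themselves, IFNB1 and IRF1 had r = 0.99 over the group means, and IFNAR1 and IFNAR2 0.43. The value for IFNAR2 rests on its brightest probe set, 204785_x_at, which was not called at day 6. The 2 IFNAR2 probe sets called higher at day 6 were not used for it.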

How the data were processed

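The authors' deposited values are RMA log2 expression of 54613 probe sets on 24 arrays, made with R 2.10.1, as the submitters' processing notes say. The log base is not given in the sources used here; the range of 1.715 to 14.33 is that of log2. RMA gives no detection calls, and the number of arrays limits the precision. Symbols came from the platform's annotation: 41091 probe sets had 1 symbol; the 1801 with several and the 11721 with none were not used for genes.

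Each of 19775 genes was represented by its brightest probe set over the 24 arrays, and limma 3.58.1 in R 4.3.3 was fitted with 1 coefficient for each of 8 groups (16 residual and 5.22 prior degrees of freedom). P-values were 2-sided, adjusted by Benjamini-Hochberg over all genes, and called under 0.05. An exact test of 3 against 3 cannot go below 0.1. The fit was tested on simulated data.

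The genes and the lists were chosen with earlier results of these data known. The text names the listed genes with the largest called differences (up to 4 a list at day 6 and up to 2 at earlier days), and the 3 genes most correlated with each called gene. HERC5, TLR3, TLR9, the lower sensor genes and the uncalled JAK, STAT and IRF genes were named after their values were seen. So were the antigen-processing targets of IRF1 and the higher genes of the sensor list below the largest called differences. Equal replicate numbers were not taken as pairs. After subtraction of group means, inhibitor and DMSO arrays of the same day and number correlated over 0.1 in 11 of 12 cases, the lowest being 0.0647. The numbers did carry structure: across groups the median correlation was 0.243 for arrays of equal number and -0.118 for arrays of different number. For 22 of 24 arrays the own number matched best. Fits with a replicate block are therefore given among the alternatives. Alternatives changed the probe set rule, the filter, the normalization, the fit, the weights, the block and the arrays included.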

Additional observations from a re-analysis of the deposited data

Results flagged for a closer look

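For 5 genes the difference from DMSO was not the same at day 6 as at day 1, by the test of that change itself in limma, with n = 3 arrays a group. The change was 1.67 ± 0.43 (SE) on the log2 scale for IRF7, 1.65 ± 0.26 for IRF1, 1.54 ± 0.38 for IRF9, 1.34 ± 0.13 for JAK1 and 0.56 ± 0.12 for IFNAR1, and day 6 was the larger in each. Outlying arrays were not tested for, since each group had 3 arrays.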

How the results depend on the processing

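At day 6, IFNB1, IFNAR1, JAK1, TYK2, IRF1, IRF7 and IRF9 were called in every alternative that gave a value, and IFNB1 ranged over 0.96 to 1.75; it had no value without the dimmest 40 percent of genes. The count of called genes was 0 instead of 1 at day 1 when only the groups compared were fitted, when probe sets of a gene were averaged and with p adjusted over all probe sets. At day 2 it was 4 instead of 1 with array weights and with only the compared groups fitted. No pairing was assumed; with a replicate block the day 2 count was 3, adding IRF7 and IRF9 (adjusted p = 0.00583 and 0.00101), and with a replicate block within each day it was 4, adding IRF1 too (adjusted p = 0.0358). Leaving out arrays gave 0 to 1 genes at day 1, 1 to 3 at day 2, 2 to 5 at day 3, 3 to 7 for the growth between day 1 and day 6 and 1 to 3 for that between day 3 and day 6; the causes were not tested.

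Only values that were not called changed sign. With the mean of probe sets, IFNAR1 at day 2 was -0.0093, and IFNAR2 was 0.17 at day 3 and 0.20 over the mean of 4 days (adjusted p = 0.000758). Leaving out arrays gave IFNAR2 -0.0066 to 0.073 at day 1, -0.11 to 0.0058 at day 3, -0.013 to 0.12 for the growth between day 1 and day 6 and -0.033 to 0.0059 over the mean of 4 days, IRF7 at day 1 -0.15 to 0.62 and TYK2 at day 1 -0.065 to 0.13. Over all genes, the number higher ranged over 2 to 294 at day 1 (94 as reported), 246 to 1233 at day 2 (706), 858 to 2357 at day 3 (1709) and 2856 to 4104 at day 6 (3653).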

Other observations

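Receptors of other interferons also moved. IFNLR1, the specific chain of the interferon lambda receptor, averaged 9.24 with inhibitor and 7.11 with DMSO at day 6, a difference of 2.13 ± 0.24 (limma adjusted p = 2.26e-07). Its partner chain IL10RB, shared with interleukin 10 family cytokines, was higher by 0.78 ± 0.14 (adjusted p = 8.50e-05), and IFNGR2, a chain of the interferon gamma receptor, by 0.23 ± 0.08 (adjusted p = 0.0285). IFNGR1 (0.28) and IFNG (-0.11) were not called, so that 3 of 5 genes were higher at day 6, where 18.5% of all genes were. At days 1, 2 and 3 it was 0 of 5 (0, 1 and 1 at an unadjusted p under 0.05), beside 0.475%, 3.57% and 8.64% of all genes. With 5 genes and shares this small, the counts of 0 do not set these genes apart from the rest. IFNG averaged 2.89 with inhibitor and 3.00 with DMSO, under the array median.

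Markers of other cells were lower than in DMSO or not called at day 6. Lower were 1 of 8 T and NK cell markers and 3 of 8 myeloid and plasmacytoid dendritic cell markers, beside 26.9% of all genes. Within the inhibitor arrays, 0 and 1 of these markers were lower at day 6 than at day 1. CD3D, a T-cell receptor subunit, was lower by -0.58 ± 0.11, and CD14, CSF1R and ITGAM, of myeloid cells, were lower by -0.42, -0.23 and -0.32. Of 6 B-cell markers, CD79B (1.10), BLNK (0.80), CD22 (0.59) and MS4A1 (0.37) were higher at day 6, beside 18.5% of all genes. CD79A and PAX5 were not called at day 6, and PAX5 was lower at day 3 (-0.37, limma adjusted p = 0.0291). The part of these markers in the other results was not tested.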
